A study of Mus musculus with 30 samples.

Results

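The 28 genes described here make up the cell's cholesterol handling: 18 encode enzymes of cholesterol synthesis, 4 encode regulators of that pathway (Srebf2, Scap, Insig1 and Insig2), 3 encode carriers of cholesterol between membranes (Stard4, Npc1 and Npc2), 1 encodes an enzyme of cholesteryl ester storage (Soat1) and 2 encode exporters (Abca1 and Abcg1). They were taken by name from the 35120 genes of the count table and were followed across all 30 RNA-seq libraries of mouse white fat. All libraries came from mice with the floxed allele of Ctnnb1, the gene of β-catenin, and were labelled either Ctnnb1flfl, the control, or Ctnnb1KO, from Ctnnb1AdKO mice. The adipocyte libraries numbered 6 from male controls, 5 from males labelled knockout, 6 from female controls and 6 from females labelled knockout. Of stromal-vascular cells (SVC), the cells that pellet when digested fat is spun, there were 3 libraries from male controls and 4 from males labelled knockout.

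Both fractions were made by collagenase digestion of minced fat in a buffer that contained glucose and adenosine, so every group shares that treatment. The labels name epididymal and posterior subcutaneous fat together for every library, those from females included, and do not say which depot a library came from. They give neither the ages, nor the driver of the deletion, nor whether each replicate number is a separate mouse, so p-values measure the spread between these libraries. Ctnnb1 mRNA averaged 328 ± 23.2 CPM (counts per 1000000 of the library's total, mean ± SD, n = 5) in male adipocytes labelled knockout and 326 ± 11.7 CPM (n = 6) in their controls. In females it averaged 329 ± 30.5 CPM in the libraries labelled knockout and 320 ± 22.6 CPM in controls (n = 6 each). The label was therefore not visible in this transcript, and "labelled knockout" below means the label only.

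Cholesterol is built from acetyl-CoA through mevalonate, squalene and lanosterol. When sterol in the endoplasmic reticulum is low, the escort protein Scap carries the transcription factor precursor encoded by Srebf2 to the Golgi, where it is cut and freed to switch on the genes of synthesis. The proteins of Insig1 and Insig2 hold Scap back when sterol is plentiful, and Insig1 is itself a target of the factor. Adipocytes store a large pool of free cholesterol in and around the lipid droplet, and the exporters Abca1 and Abcg1 are switched on by liver X receptors when oxysterols accumulate.

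The members share a feature of sequence that the choice of genes did not use. RefSeq promoter windows (build GRCm38.p6, 250 bases before to 50 bases after a start site) were found for 22 of the 28 members. A CCAAT box, searched as CCAAT on both strands (ATTGG on the other strand) in any window of a gene, was present in 14 of the 15 synthesis genes with a window (93.3%) and in 19 of the 22 members (86.4%). The same 5 letters were present in 42.5% of 10466 genes tested in adipocytes and in 41.1% of 27025 genes with a window. Acat2, Scap and Abca1 were the members without it. A sterol regulatory element of the form TCACNCCAC, searched on both strands, was present in 1 member, Hmgcs1, against 1.37% of the genes tested in adipocytes. A match describes letters only and shows no binding.

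The 250 bases before the start site are given below for Hmgcs1, Hsd17b7, Idi1, Insig1 and Insig2, 5′ to 3′ on the gene's strand. Matches to the CCAAT box on either strand and to the sterol element are in capitals. Hmgcs1 (plus strand, chr13:119690101-119690350) holds the sterol element 137 bases before the start and ATTGG 237, 176 and 45 bases before it. Hsd17b7 (minus strand, chr1:169969206-169969455) holds ATTGG 165, 73 and 12 bases before the start. Idi1 (plus strand, chr13:8885356-8885605) holds it 45 and 14 bases before, and Insig1 (plus strand, chr5:28071162-28071411) 216 bases before. Of the 3 windows of Insig2, the one shown (minus strand, chr1:121332590-121332839) holds the box 136, 46 and 29 bases before its start, and the other two hold none.
Hmgcs1: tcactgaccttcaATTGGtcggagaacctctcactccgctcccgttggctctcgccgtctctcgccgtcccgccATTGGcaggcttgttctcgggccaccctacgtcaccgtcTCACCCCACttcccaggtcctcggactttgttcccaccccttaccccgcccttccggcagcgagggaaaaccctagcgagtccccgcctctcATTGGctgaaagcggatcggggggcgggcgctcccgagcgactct
Hsd17b7: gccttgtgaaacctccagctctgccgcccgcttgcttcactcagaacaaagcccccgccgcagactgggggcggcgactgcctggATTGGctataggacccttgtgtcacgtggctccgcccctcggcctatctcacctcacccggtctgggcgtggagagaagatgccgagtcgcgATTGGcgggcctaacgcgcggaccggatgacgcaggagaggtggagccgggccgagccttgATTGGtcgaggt
Idi1: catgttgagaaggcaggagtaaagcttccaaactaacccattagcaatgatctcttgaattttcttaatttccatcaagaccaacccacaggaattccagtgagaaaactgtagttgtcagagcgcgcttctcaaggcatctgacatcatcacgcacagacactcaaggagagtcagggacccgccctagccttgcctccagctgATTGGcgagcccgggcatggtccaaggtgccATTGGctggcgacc
Insig1: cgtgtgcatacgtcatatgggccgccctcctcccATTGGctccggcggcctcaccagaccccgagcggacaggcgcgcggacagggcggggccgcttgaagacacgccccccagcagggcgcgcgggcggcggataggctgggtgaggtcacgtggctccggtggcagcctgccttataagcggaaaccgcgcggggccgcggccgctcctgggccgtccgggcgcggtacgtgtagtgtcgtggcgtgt
Insig2: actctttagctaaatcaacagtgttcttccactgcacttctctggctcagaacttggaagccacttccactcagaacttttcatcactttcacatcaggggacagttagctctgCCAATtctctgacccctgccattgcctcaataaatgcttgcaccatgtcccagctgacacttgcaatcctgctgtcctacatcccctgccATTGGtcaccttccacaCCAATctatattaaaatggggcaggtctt

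Libraries held 20484836 to 22209603 counts. The adipocyte label was borne out by its markers: 12 adipocyte genes summed to 45190 to 76917 CPM in adipocyte libraries and to 1064 to 2663 CPM in SVC, and 10 progenitor genes to 1146 to 2324 CPM and 7795 to 14006 CPM respectively. Adipoq averaged 4899 ± 474 CPM in male control adipocytes and 35.2 ± 39.9 CPM (n = 3) in control SVC, while Plin1 averaged 3991 ± 324 and 31.0 ± 32.9 CPM. The progenitor gene Pdgfra averaged 1.90 ± 0.720 CPM and 345 ± 101 CPM in the same groups, the leukocyte gene Ptprc 10.00 ± 3.28 and 366 ± 88.0 CPM, and the macrophage gene Adgre1 23.5 ± 8.10 and 309 ± 115 CPM. Pecam1, of endothelium, reached 43.5 to 87.9 CPM in male control adipocytes, so these preparations held some vessel RNA. One SVC library, control replicate 1, carried 4937 CPM of 8 epididymal genes, against at most 76.1 CPM in the other 6 SVC libraries and 0.544 CPM in adipocytes. In bulk samples, fewer cells of a type and less RNA per cell cannot be told apart.

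Of the 28 members, 27 passed the filter on low counts in each fit. The exception was Fdps, farnesyl diphosphate synthase, with 0 to 10 reads in every library. Of its annotated 50-base words, 26.2% also occur in transcripts of 8 other genes. Why its counts were near 0 was not tested, and no level of it is given. Words shared with other genes made up 39.1% in Acat2, 26.5% in Fdft1, 25.3% in Idi1 and 11.6% in Hmgcs1, whose levels are to that extent uncertain. Among these, Acat2 overlaps Tcp1, and Fdft1 shares words with Ctsb and Gm6781. The strand setting of the counting is not given in the sources used here.

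Per kilobase of annotated exon, the most abundant member in male control adipocytes was Npc2, which carries cholesterol out of the lysosome, with 147 CPM per kb. Insig1 followed with 78.7 CPM per kb, Acat2, which makes acetoacetyl-CoA, with 48.1, Pmvk, phosphomevalonate kinase, with 33.2 and Abca1 with 29.7 CPM per kb. At the other end, Hsd17b7 stood at 1.61, Stard4, a soluble sterol carrier, at 0.865 and Soat1, which esterifies cholesterol for storage, at 0.558 CPM per kb. These levels compare genes only by their annotated length.

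One library stood apart in synthesis. Among the 11 male adipocyte libraries, replicate 5 of those labelled knockout was the highest in 16 of the 17 synthesis members tested, all but Hmgcs1. The geometric mean of these 17 was 68.3 CPM in that library, 29.3 to 35.2 CPM in the other 4 labelled knockout and 30.5 to 35.5 CPM in the 6 controls. Insig1 reached 836 CPM there and 142 to 333 CPM in the other 10 male libraries. The exporter Abca1 was at 181 CPM, its lowest among the 11. The same library was the highest in 12 of 15 genes of fatty acid synthesis.

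**Figure D1:**
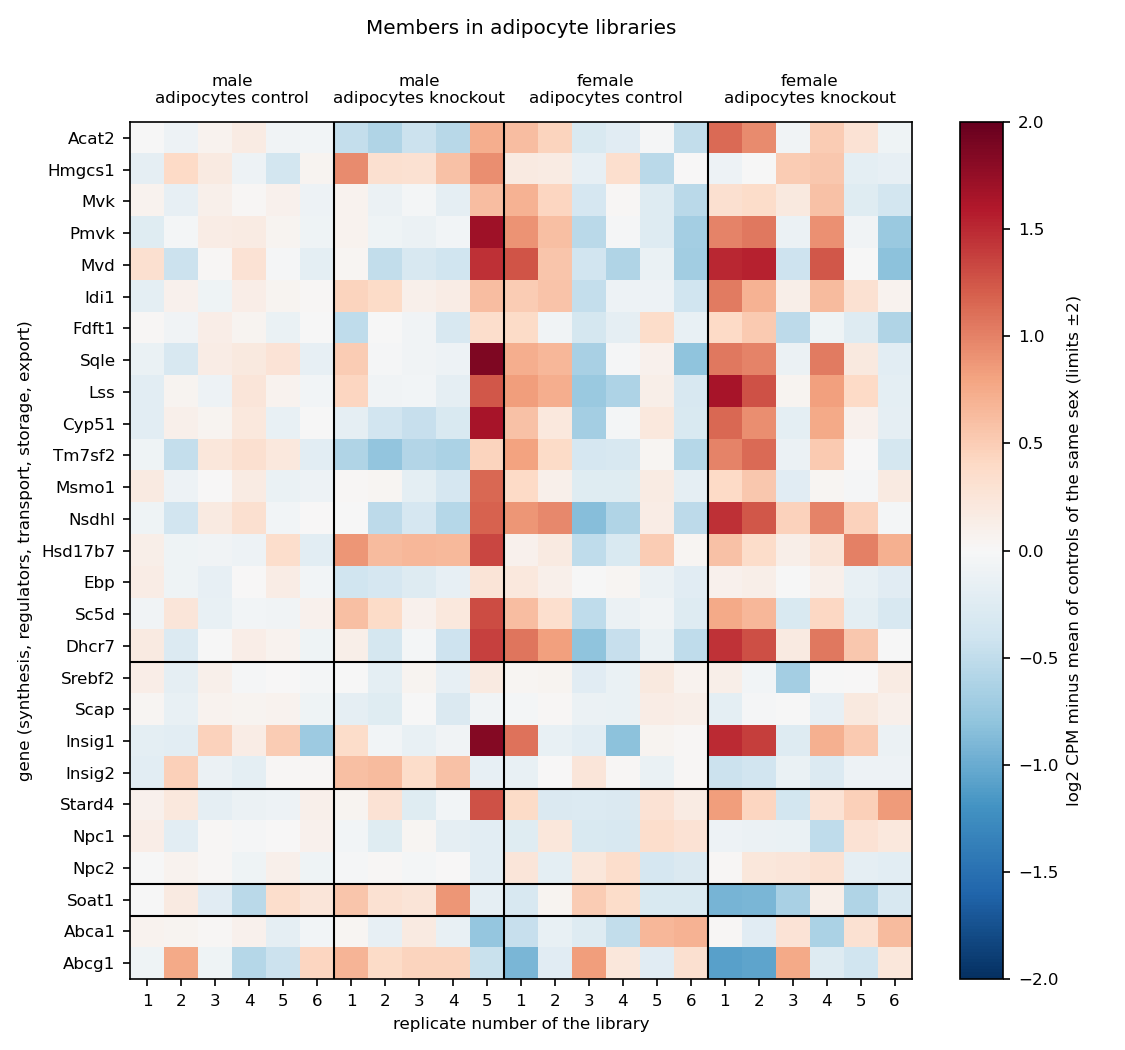
Each row is a member and each column an adipocyte library; colour gives log2 CPM minus the mean of the controls of the same sex, with rows ordered by role. Replicate 5 of the male libraries labelled knockout and replicates 1, 2 and 4 of the female ones are red through most synthesis rows and Insig1, while Hmgcs1 and Hsd17b7 follow another pattern. Replicates 1 and 2 of the female controls are also high, above the median of their group in all 17 synthesis members.

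In females the synthesis genes moved together from library to library. Their geometric means in the 6 controls were 63.3, 54.7, 29.7, 35.5, 40.9 and 31.2 CPM, and in the 6 libraries labelled knockout 74.8, 71.4, 40.1, 62.3, 44.6 and 35.6 CPM. The groups overlapped: controls 1 and 2 lay above 3 of the libraries labelled knockout. Of deviations from the group means over these 12 libraries, the median correlation between pairs of synthesis members was 0.83 (136 pairs) and that between all genes tested 0.044. A list of 15 genes of fatty acid synthesis gave the same median, 0.83. In the 10 male libraries other than replicate 5 labelled knockout, the synthesis median was 0.22. These correlations share libraries and depth and are given as a description without a test.

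Most synthesis members tracked the mean of the others over the 12 female libraries: r was 0.98 for Dhcr7, which catalyses a final reduction to cholesterol, 0.97 for Acat2 and 0.96 for Sqle, squalene epoxidase. Hmgcs1, the synthase that makes HMG-CoA, had r = 0.10 and Hsd17b7 r = 0.11, the lowest of the 17. Insig1 tracked the synthesis mean with r = 0.81. Insig2 and Abcg1 ran the other way, with r = -0.83 and r = -0.89, and Abca1 had r = -0.53. In the 10 male libraries the values were 0.72 for Dhcr7, 0.01 for Hmgcs1, 0.30 for Hsd17b7, 0.65 for Insig1, -0.37 for Insig2, -0.43 for Abcg1 and 0.27 for Abca1. The lowest synthesis members there were others, Fdft1 at -0.42 and Ebp at -0.33, and Sc5d had 0.06.

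The first question is what the knockout label did to these genes in adipocytes. Hsd17b7, the reductase that completes removal of methyl groups from the sterol ring, was the clearest member in males. In females it and Idi1 had the smallest edgeR adjusted p of the members, and neither was called in the main fit. In males Hsd17b7 stood at 7.00 to 10.3 CPM in the 6 controls (median 7.71) and at 15.1, 12.6, 12.9, 12.8 and 20.6 CPM in the 5 libraries labelled knockout. Every library labelled knockout thus lay above every male control, and no other member separated the male groups; of all 14227 genes tested, 1.77% did not overlap. In females Hsd17b7 ranged from 9.04 to 18.3 CPM in controls (median 13.4) and from 14.0 to 25.8 CPM in the libraries labelled knockout (median 17.9). These groups overlapped, as did those of every other member in females, where 0.886% of all genes did not.

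Averaged over the sexes, Hsd17b7 rose in the libraries labelled knockout by 0.69 on the log2 scale (SE 0.13), a 1.61-fold change, with an edgeR quasi-likelihood adjusted p of 0.0105 (Benjamini-Hochberg over all genes). It was the 1 member called out of 27, where 108 of 14227 genes (0.759%) were called. The call held in all 30 alternatives, with adjusted p of 0.000154 to 0.0217, and without male replicate 5 labelled knockout the change was 0.61 (SE 0.12, edgeR adjusted p = 0.0161). Taken singly, the sexes did not pass in this fit. The log2 change in males was 0.82 (SE 0.19, edgeR adjusted p = 0.0945), and 0.66 without replicate 5 (SE 0.19, edgeR adjusted p = 0.0606). In females it was 0.57 (SE 0.18, edgeR adjusted p = 0.211), and Hsd17b7 was called there with title numbers as a replicate block. The difference between the sexes was -0.25 (SE 0.26, edgeR adjusted p = 0.835). At 7.00 to 25.8 CPM in adipocytes, the gene is read at low levels. Summed over 8 mesothelial genes, male controls held 15.4 to 106 CPM and males labelled knockout 5.60 to 23.6 CPM, and the part of that shift in the Hsd17b7 result was not tested.

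**Figure D2:**
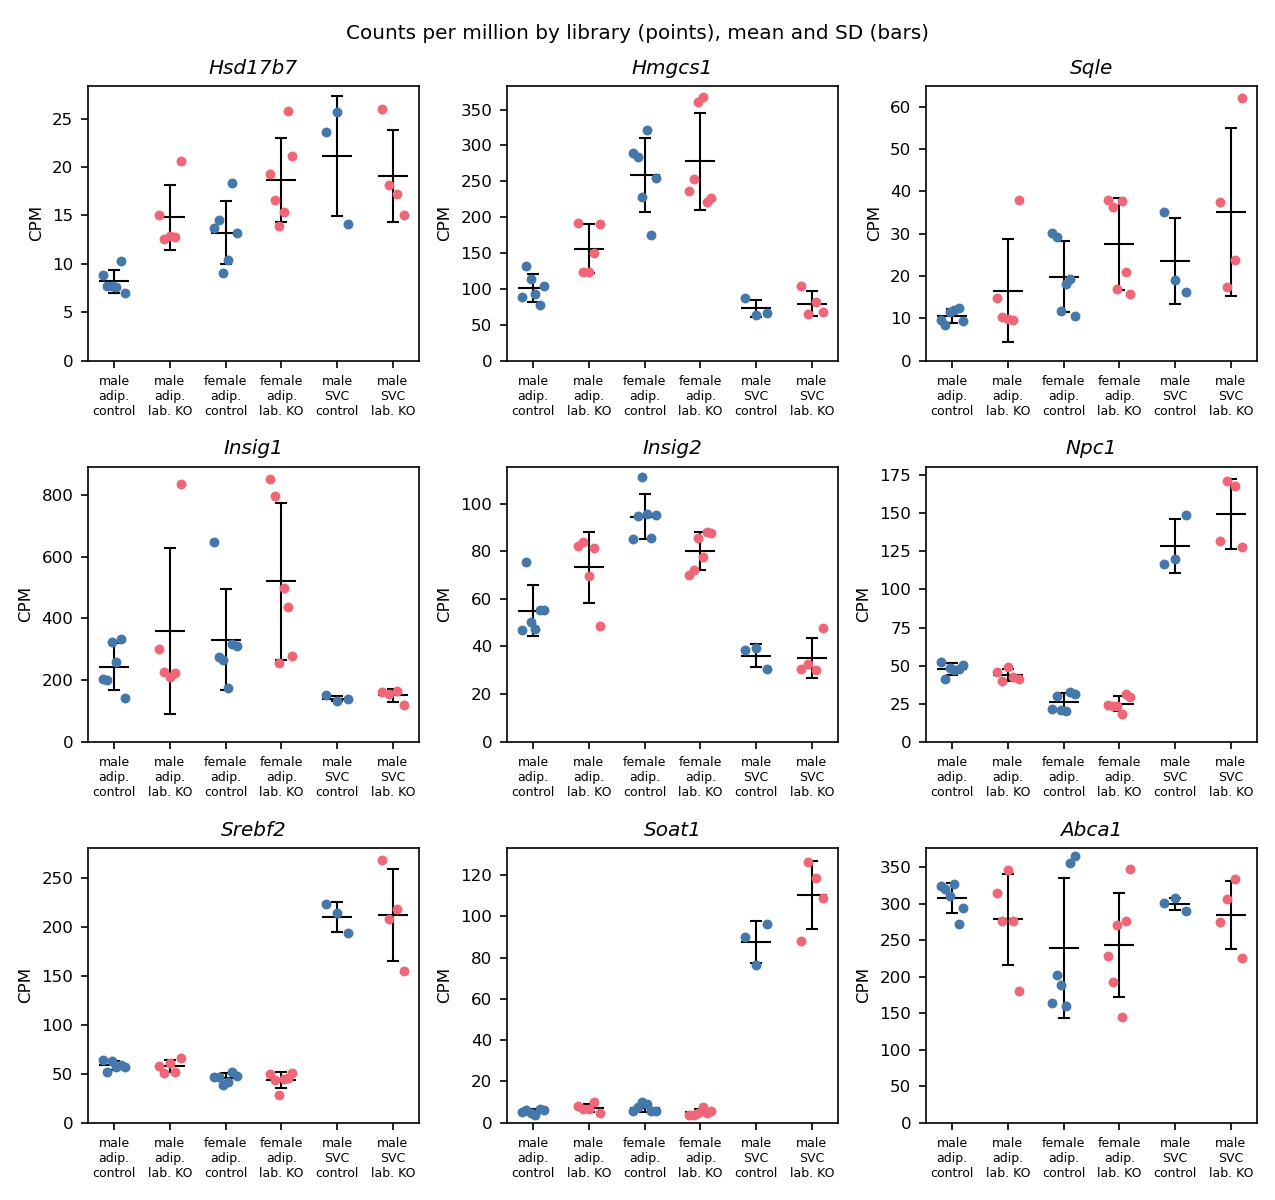
Points are libraries, in CPM on axes that start at 0, and bars are the mean and SD of each group for 9 members. Hsd17b7 separates the male adipocyte groups, Hmgcs1 and Insig2 separate female from male controls, and Srebf2, Npc1 and Soat1 separate SVC from adipocytes.

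In male adipocytes no member was called, and 10 of 14227 genes (0.0703%) were. Behind Hsd17b7, Hmgcs1 had the next smallest p. It ranged from 77.6 to 132 CPM in controls (median 98.5) and stood at 193, 124, 123, 151 and 190 CPM in the libraries labelled knockout, so that only the top control reached the lower libraries labelled knockout. Its log2 change was 0.59 (SE 0.16, edgeR adjusted p = 0.142), and 0.50 without replicate 5 (SE 0.16, edgeR adjusted p = 0.0972). Insig2 ranged from 46.9 to 75.5 CPM in controls (median 52.7) and stood at 82.4, 84.0, 69.7, 81.5 and 48.7 CPM in those labelled knockout. Here replicate 5, the library of high synthesis, was the low one. The log2 change of Insig2 was 0.38 (SE 0.12, edgeR adjusted p = 0.201), and without that library 0.49 (SE 0.11, edgeR adjusted p = 0.0296), a call made where 332 of 14344 genes (2.31%) were called. Sc5d, a sterol desaturase, had a log2 change of 0.55 (SE 0.23, edgeR adjusted p = 0.315), and 0.28 without replicate 5.

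The remaining male synthesis values turned with replicate 5. With it, 13 of 17 synthesis members had a positive log2 change and the median was 0.26. Without it, 5 were positive and 12 negative, with a median of -0.16. The median of all genes tested was 0.02 with all libraries. Cyp51, lanosterol demethylase, shows the turn: controls ranged from 33.1 to 44.6 CPM (median 39.2), and the libraries labelled knockout stood at 33.9, 29.5, 27.9, 31.2 and 121 CPM. Replicates 1 to 4 lay below the control median and replicate 5 above every control.

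In female adipocytes no member was called either, where 67 of 14227 genes (0.471%) were. This depends on the fit: with title numbers as a replicate block, Acat2, Idi1, Hsd17b7 and Dhcr7 were called. All 17 synthesis members tested had a positive log2 change, from 0.02 to 0.77 with a median of 0.54, beside a median of 0.01 and 51.5% positive over all genes. That count holds with TMM scaling, the scaling used for all log2 values here, and with 2 related scalings. With scaling by library totals 15 of 17 were positive, Fdft1 having -0.05 and Ebp -0.02, and the median was 0.46. Because these genes moved together from library to library, the count of 17 is not that of independent genes. Idi1, isopentenyl diphosphate isomerase, ranged from 12.5 to 26.1 CPM in controls (median 16.3) and from 18.5 to 36.0 CPM in the libraries labelled knockout (median 24.5), a log2 change of 0.54 (SE 0.17, edgeR adjusted p = 0.211). Lss, lanosterol synthase, ranged from 22.9 to 68.3 CPM (median 36.3) and from 33.6 to 120 CPM (median 59.4), with 0.77 (SE 0.32, edgeR adjusted p = 0.386). Soat1 went the other way, from 5.73 to 10.1 CPM in controls (median 6.61) and from 3.75 to 7.77 CPM (median 4.64), with -0.48 (SE 0.19, edgeR adjusted p = 0.369). Each of these 3 overlapped between the groups.

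Summed marker genes of macrophages, brown fat and mesothelium also shifted with the female label, with overlapping ranges. Summed over 12 macrophage genes, controls held 274 to 573 CPM and libraries labelled knockout 77.1 to 345 CPM, and summed over 7 brown fat genes 25.9 to 139 and 135 to 287 CPM. Over 8 mesothelial genes the ranges were 8.83 to 77.7 and 7.93 to 18.3 CPM, with Upk3b at 12.9 ± 5.93 and 4.86 ± 2.15 CPM (n = 6 each). Of the brown fat genes, Ppargc1a (log2 change 1.22, edgeR adjusted p = 0.0143), Cidea (2.01, 0.0364) and Otop1 (2.09, 0.0409) were called higher. Of all genes, 0.471% were called. The other brown fat genes also had positive log2 changes but were not called. Cidea did not overlap, at 9.89 to 37.1 CPM in controls and 65.1 to 93.3 CPM in the libraries labelled knockout. The 15 genes of fatty acid synthesis had a median log2 change of 0.87, 14 of them positive and none called. The part of these shifts in the cholesterol values was not tested.

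The other regulators, the carriers and the exporters were not called in either sex. In males Srebf2 had a log2 change of -0.06 (SE 0.13) and Scap of -0.19 (SE 0.10), and in females Srebf2 had 0.01 (SE 0.12) and Scap 0.05 (SE 0.09). Insig1 had 0.53 (SE 0.40) in males, -0.08 without replicate 5, and 0.73 (SE 0.38) in females. The lysosomal carrier Npc1 had -0.17 (SE 0.15) in males and Npc2 -0.08 (SE 0.11), while Stard4 had 0.35 (SE 0.24) in males, -0.02 without replicate 5, and 0.51 (SE 0.23) in females. Abca1 had -0.19 (SE 0.24) in males and 0.08 (SE 0.23) in females, and Abcg1 0.24 (SE 0.32) and -0.20 (SE 0.30). For none of these was the edgeR adjusted p in the single-sex comparisons below 0.05. Averaged over the sexes, Insig1 had 0.63 (SE 0.27, edgeR adjusted p = 0.279) and Stard4 0.43 (SE 0.17, edgeR adjusted p = 0.229). Srebf2, Scap, Npc1, Npc2, Abca1 and Abcg1 had averages of -0.09 to 0.02.

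No member's response to the label was called as differing between the sexes, where 2 of 14227 genes (0.0141%) were. The smallest p belonged to Insig2, with a difference of female minus male log2 change of -0.55 (SE 0.17, edgeR adjusted p = 0.379). Soat1 followed with -0.81 (SE 0.28, edgeR adjusted p = 0.408), then Tm7sf2, a sterol reductase, with 0.90 (SE 0.40, edgeR adjusted p = 0.543) and Acat2 with 0.76 (SE 0.36, edgeR adjusted p = 0.55). Without male replicate 5 labelled knockout these 4 differences were -0.66, -0.93, 1.21 and 1.13, with edgeR adjusted p of 0.0733, 0.150, 0.169 and 0.134.

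**Figure D3:**
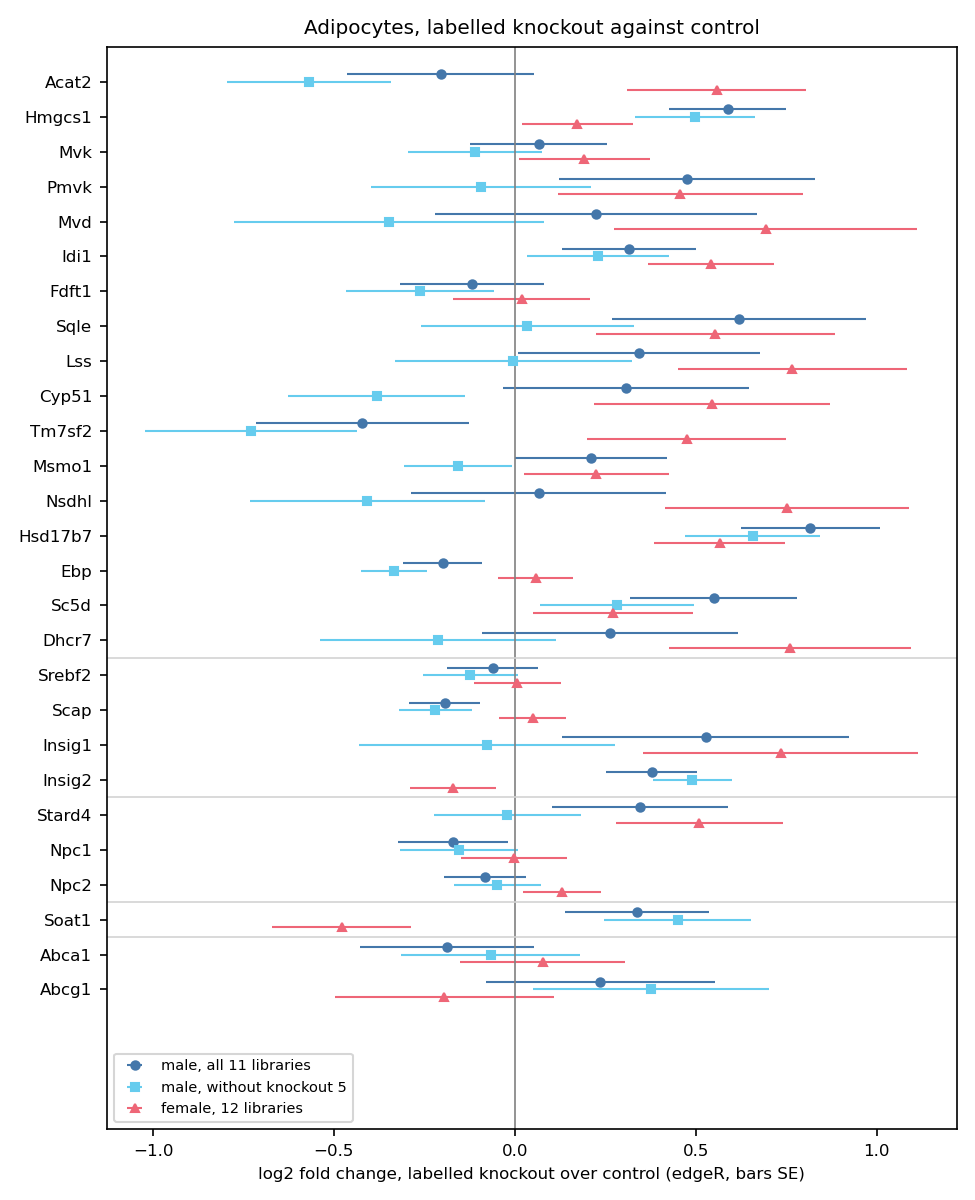
Points are log2 fold changes of libraries labelled knockout over controls, bars are SE, and rows are members by role. Hsd17b7 lies above 0 in all 3 series, female synthesis values all lie above 0 with this TMM scaling, and most male synthesis values move left once replicate 5 is left out.

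Beyond the members, 40 further genes of cholesterol uptake, trafficking, regulation and oxysterol metabolism were read, of which 38 passed the filter in adipocytes. None was called in either sex alone, and averaged over the sexes 1 was. This was Vldlr, a receptor that binds triglyceride-rich lipoproteins, which rose by 0.39 (SE 0.08, edgeR adjusted p = 0.0173). With title numbers as a replicate block its edgeR adjusted p was 0.0600. It ranged from 57.4 to 78.1 CPM in male controls and stood at 119, 91.4, 86.9, 83.4 and 67.2 CPM in males labelled knockout. In females it ranged from 45.5 to 69.5 CPM in controls and from 65.2 to 93.7 CPM in the libraries labelled knockout. Both sexes overlapped between the groups.

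Female and male control adipocytes differed in several members. The depot of each library is not given, so sex and depot cannot be told apart in these comparisons. Of 27 members, 5 were higher in females and 3 lower, against 6227 of 14227 genes (43.8%) called in either direction, 23.7% higher and 20.1% lower, so the share of members called, 8 of 27, was not above that of all genes. Hmgcs1 differed most: 77.6 to 132 CPM in males (median 98.5) and 175 to 321 CPM in females (median 269). The groups did not overlap, and the log2 difference was 1.33 (SE 0.16, edgeR adjusted p = 6.54e-07). Non-overlap was found in 5 members in all, and in 20.7% of all genes.

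Insig2, Idi1, Hsd17b7 and Sqle were the other members higher in females. Insig2 stood at 85.0 to 111 CPM in females (median 94.9), above all males, with a log2 difference of 0.77 (SE 0.12, edgeR adjusted p = 2.45e-05). Idi1 stood at 9.86 to 12.4 CPM in males (median 11.6), just below the lowest female control, with 0.66 (SE 0.18, edgeR adjusted p = 0.00433). Hsd17b7 had 0.68 (SE 0.18, edgeR adjusted p = 0.005) with overlapping groups. Sqle had 0.88 (SE 0.34, edgeR adjusted p = 0.0384). That last call was lost in 11 of 31 alternatives, 9 of them with 1 library left out, and its female controls spread from 10.5 to 30.2 CPM.

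The members lower in females were Npc1, Scap and Srebf2. Npc1, which passes lysosomal cholesterol to the membrane, stood at 41.1 to 52.1 CPM in males (median 48.2) and at 20.5 to 32.5 CPM in females (median 25.8), with a log2 difference of -0.88 (SE 0.15, edgeR adjusted p = 4.83e-05). Scap stood at 55.2 to 64.6 CPM (median 63.2) and at 43.1 to 52.0 CPM (median 47.0), with -0.39 (SE 0.09, edgeR adjusted p = 0.00168). Neither gene's groups overlapped. Srebf2 ranged from 51.3 to 63.7 CPM (median 58.0) and from 38.5 to 52.0 CPM (median 46.7), overlapping at the edge, with -0.37 (SE 0.12, edgeR adjusted p = 0.0146).

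Of the 38 further genes, 2 were higher in females and 13 lower. Lipa, the lysosomal acid lipase that frees cholesterol from its esters, was lower by a log2 difference of -0.68 (SE 0.08, edgeR adjusted p = 5.38e-07). It averaged 38.8 ± 2.31 CPM in females and 61.6 ± 5.69 CPM in males (n = 6 each). Gramd1b, which moves cholesterol from the plasma membrane to the endoplasmic reticulum, averaged 9.10 ± 2.81 and 30.6 ± 10.3 CPM, with -1.76 (SE 0.22, edgeR adjusted p = 1.59e-06). Por, the electron donor of Cyp51 and other microsomal enzymes, averaged 591 ± 132 and 1378 ± 178 CPM, with -1.23 (SE 0.16, edgeR adjusted p = 2.67e-06). Summed macrophage markers were 274 to 573 CPM in female and 578 to 1117 CPM in male controls, with 7 of 12 genes called lower in females. The 10 progenitor genes summed to 1526 to 2324 CPM in female and 1169 to 1389 CPM in male controls, 4 of them called higher in females. The 7 brown fat genes summed to 25.9 to 139 and 7.37 to 83.6 CPM, also with 4 called higher. The part of these shifts in the sex differences was not tested.

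The largest differences were between fractions. In male controls 21 of 27 members differed between adipocytes and SVC, 16 higher and 5 lower in adipocytes, where 13293 of 17251 genes (77.1%) differed, 32.8% higher and 44.2% lower. In males labelled knockout 20 differed, 16 higher and 4 lower, beside 13199 genes (76.5%), 31.8% higher and 44.7% lower. The medians of the members were 0.80 and 0.86, and that of all genes -0.29 in both. Synthesis members had medians of 1.34 and 1.41. These log2 differences come from TMM-scaled counts, and scaling by library totals, which CPM uses, moved the median of all genes to -0.85 and -0.75. By totals 18 members were called in each genotype, 12 higher and 6 lower, beside 22.1% of all genes higher and 56.4% lower in controls and 22.7% and 55.4% in the libraries labelled knockout. The members' medians by totals were 0.25 and 0.40. Idi1 was among the members called higher with TMM scaling in both genotypes but had log2 differences of -0.17 and -0.11 by totals, not called. Scap and Insig1 lost their call by totals in controls, Mvd and Fdft1 in the libraries labelled knockout and Abca1 in both. SVC control 1, which carried epididymal RNA, and SVC 4 labelled knockout had high counts of some synthesis genes. Fdft1, squalene synthase, was at 57.3 and 180 CPM there and at 11.1 to 23.0 CPM in the other 5 SVC libraries. Of the 50-base words of Fdft1, 26.5% also occur in Ctsb or Gm6781, and the part of this in its counts was not tested. Without SVC control 1, 21 members were called in controls, and without SVC 4 labelled knockout 18 were called in the libraries labelled knockout.

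Soat1 differed most. It was at 90.0, 76.5 and 96.3 CPM in control SVC and at 3.67 to 6.84 CPM in control adipocytes (median 5.69), a log2 difference of -3.47 (SE 0.21, edgeR adjusted p = 2.27e-10). Srebf2 was at 223, 214 and 193 CPM in control SVC, above the 51.3 to 63.7 CPM of adipocytes, with -1.30 (SE 0.15, edgeR adjusted p = 6.65e-07). Stard4 was at 25.2, 28.8 and 22.3 CPM in SVC and at 4.23 to 5.58 CPM in adipocytes (median 4.80), with -1.85 (SE 0.26, edgeR adjusted p = 6.09e-06). Npc1 was at 117, 120 and 149 CPM in SVC, with -0.90 (SE 0.15, edgeR adjusted p = 4.45e-05). None of these 4 overlapped between the fractions in controls or in the libraries labelled knockout, where the log2 differences were -3.52, -1.45, -1.53 and -1.34. Non-overlap was found in 16 of 27 members in controls, where 74.7% of all genes did not overlap, and in 16 in the libraries labelled knockout, where 62.8% did not.

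The storage enzyme and Npc1 are also expressed in macrophages. Summed over 12 macrophage genes, SVC held 5646 to 10929 CPM and male adipocyte libraries 578 to 1117 CPM. The part of cell composition in the difference between fractions was not tested.

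The enzymes were mostly higher in adipocytes. Acat2 was at 33.6, 15.3 and 17.1 CPM in control SVC and at 114 to 137 CPM in control adipocytes (median 120), a log2 difference of 3.05 (SE 0.36, edgeR adjusted p = 7.27e-07). Mvk, mevalonate kinase, was at 12.2, 10.5 and 10.7 CPM in SVC and at 35.1 to 41.9 CPM in adipocytes (median 40.4), with 2.37 (SE 0.18, edgeR adjusted p = 4.55e-09). Sc5d had 1.84 (SE 0.24, edgeR adjusted p = 2.03e-06), and Ebp, a sterol isomerase, 1.34 (SE 0.20, edgeR adjusted p = 9.12e-06). Npc2 was higher by 1.28 (SE 0.19, edgeR adjusted p = 1.15e-05), against the direction of Npc1, its partner in the lysosome. Insig2 was higher by 1.16 (SE 0.18, edgeR adjusted p = 1.71e-05). In the libraries labelled knockout the log2 differences of these 6 were 3.02, 2.25, 2.50, 1.02, 1.09 and 1.51. Pmvk had 2.35 and 2.94 in the 2 genotypes, Lss 1.62 and 2.33, Nsdhl, a dehydrogenase of sterol demethylation, 2.03 and 2.16, and Tm7sf2 1.64 and 1.99.

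Not every enzyme followed. Sqle had log2 differences of -0.58 (SE 0.41) and -0.60 (SE 0.40) in the 2 genotypes, Cyp51 0.17 (SE 0.39) and 0.33 (SE 0.36) and Msmo1, a sterol methyl oxidase, 0.47 (SE 0.28) and 0.42 (SE 0.26), none of them called. By library totals these were -1.17 and -1.10 for Sqle, both called, -0.38 and -0.13 for Cyp51 and -0.09 and -0.02 for Msmo1. Dhcr7 had 0.72 (SE 0.32) and 0.64 (SE 0.30) and was not called either. Mvd, the decarboxylase that follows Pmvk, had 0.80 (SE 0.36) and 0.86 (SE 0.33), and was called in the second, with edgeR adjusted p of 0.0519 and 0.0278, a call that held in 19 of 26 alternatives. With libraries of the 2 fractions paired by column number, the edgeR adjusted p in those labelled knockout was 0.130 for Mvd, 0.557 for Idi1, 0.0821 for Fdft1 and 0.135 for Abca1, each of which was called without the pairing. Hsd17b7 was at 23.6, 25.7 and 14.1 CPM in control SVC, above all control adipocytes, and was lower in adipocytes by a log2 difference of -0.80 (SE 0.21, edgeR adjusted p = 0.00232). In the libraries labelled knockout it stood at 26.0, 18.2, 17.2 and 15.0 CPM in SVC, overlapping the adipocytes, with 0.07 (SE 0.20, edgeR adjusted p = 0.771), or -0.37 by library totals. The difference between these 2 values was 0.87 (SE 0.29, edgeR adjusted p = 0.686) and was not called.

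**Figure D4:**
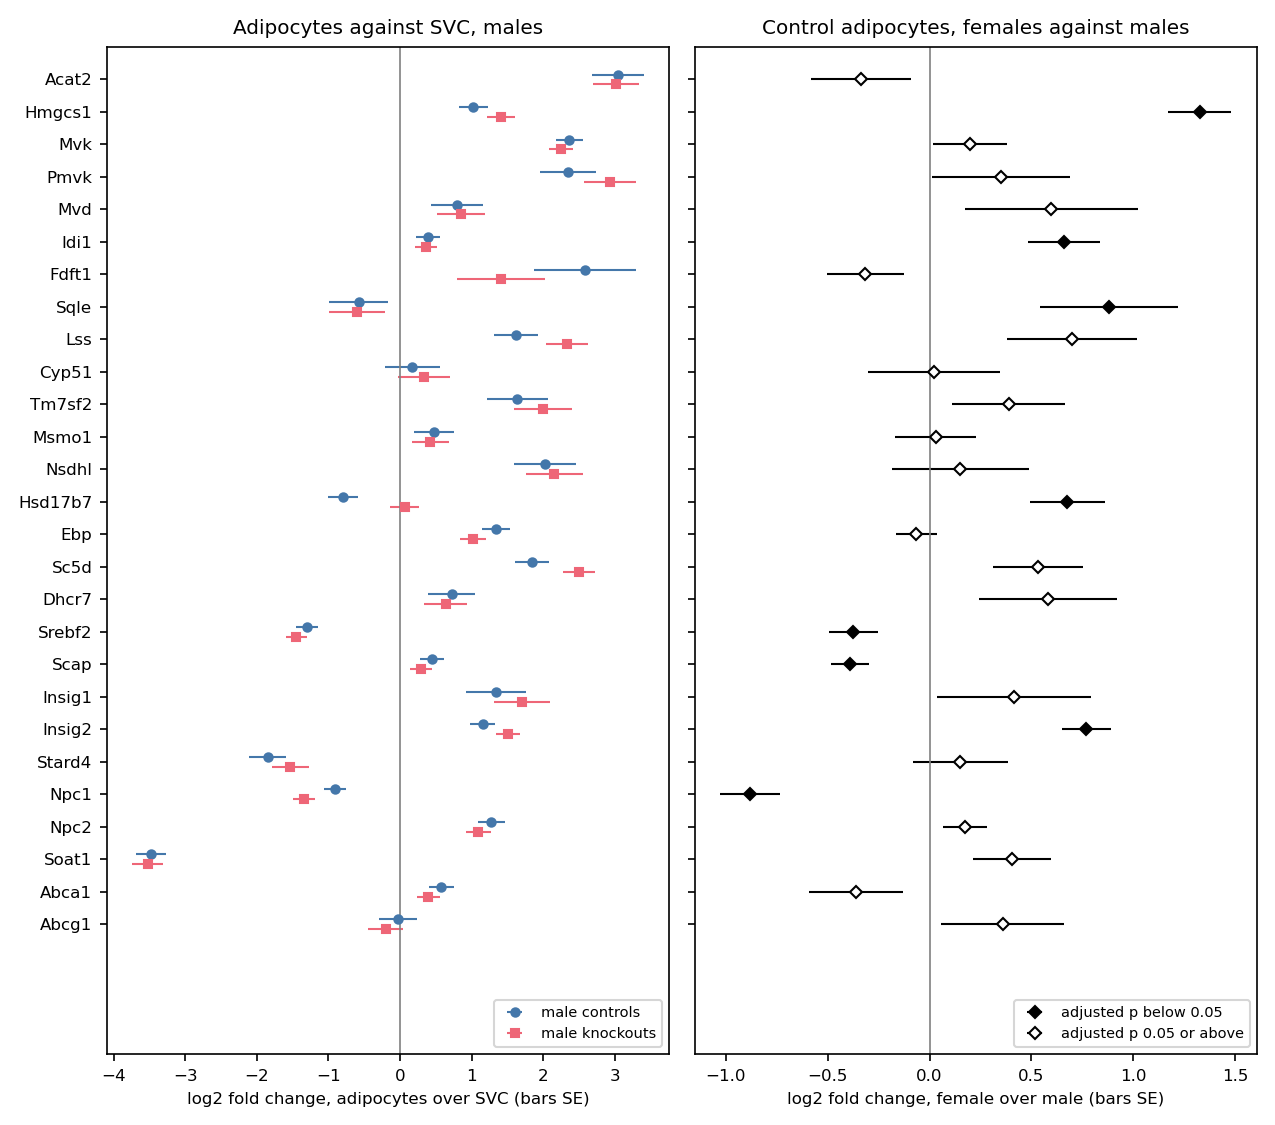
Left, log2 fold changes of male adipocytes over SVC in controls and in libraries labelled knockout; right, female over male control adipocytes, with filled points for adjusted p below 0.05. Bars are SE. Soat1, Srebf2, Stard4 and Npc1 lie left of 0 in the left panel and Hmgcs1 lies farthest right in the right panel.

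Among the 40 further genes, 12 were higher and 15 lower in control adipocytes than in SVC, and 13 and 16 in the libraries labelled knockout. Scp2, sterol carrier protein, averaged 873 ± 105 CPM in control adipocytes and 122 ± 18.9 CPM in SVC, with a log2 difference of 3.36 (SE 0.19, edgeR adjusted p = 1.27e-10). Nr1h3, the liver X receptor gene that drives Abca1 and Abcg1, averaged 154 ± 12.9 and 25.6 ± 4.43 CPM, with 3.13 (SE 0.21, edgeR adjusted p = 9.19e-10). Abca1 itself was at 272 to 327 CPM in control adipocytes and 300, 308 and 291 CPM in SVC, with a log2 difference of 0.58 (SE 0.18, edgeR adjusted p = 0.00639); by library totals it was 0.03. Nceh1, a cholesteryl ester hydrolase, was lower, at 2.90 ± 1.19 and 60.1 ± 11.4 CPM, with -3.85 (SE 0.30, edgeR adjusted p = 3.80e-09). In the libraries labelled knockout Scp2 had 3.36, Nr1h3 2.55 and Por 2.42.

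Within SVC no change of a member with the label was detected in these small groups. None of 27 was called by edgeR, nor was any of 16404 genes (0%). Of all genes 429 had an unadjusted p below 0.05, though no member did, and DESeq2 called 76 genes and no member. The smallest p belonged to Abcg1, at 41.6, 42.9 and 40.3 CPM in controls and 47.8, 58.8, 61.7 and 41.8 CPM in the libraries labelled knockout. Its log2 change was 0.37 (SE 0.18, edgeR adjusted p = 0.968). Soat1 followed with 0.36 (SE 0.20), Tm7sf2 with -0.82 (SE 0.57) and Dhcr7 with 0.30 (SE 0.21), all with the same adjusted p. Tm7sf2 was at 14.8 CPM in control 1 and at 2.51 to 4.23 CPM in the other 6, and without control 1 its log2 change was 0.26. No member's groups separated in SVC, where 3.91% of all genes did.

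No member's response to the label was called as differing between male adipocytes and SVC, where 0 of 17251 genes (0%) were. At an unadjusted p below 0.05 there were 1149 genes and 2 members, Hsd17b7 and Sc5d. Sc5d had a difference of 0.66 (SE 0.30, edgeR adjusted p = 0.732), Npc1 of -0.44 (SE 0.22, edgeR adjusted p = 0.755) and Lss of 0.71 (SE 0.39, edgeR adjusted p = 0.756). Without male replicate 5 labelled knockout these were 0.39, -0.42 and 0.37, and the median of the synthesis members went from 0.06 to -0.35. DESeq2 called 22 genes and no member.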

How the data were processed

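RNA of adipocytes and SVC was sequenced as strand-specific mRNA libraries, and the authors deposited raw counts of reads per gene, whole numbers per the file headers and values. The build was mm39 and the tools were STAR 2.7.11a, DESeq2 and FastQC 0.12.1, per the submitters' processing notes. How reads were assigned to genes is not given in the sources used here, and a deposited table of log values was not used. The 28 members and all gene lists were chosen with earlier results of these data known.

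Levels are CPM, the count divided by the library's total of 20484836 to 22209603 counts, times 1000000. Tests were edgeR 4.0.16 quasi-likelihood F-tests in R 4.3.3 with TMM scaling, filterByExpr (minimum count 10) and robust dispersions, Benjamini-Hochberg adjusted over all genes tested and called below 0.05. The 23 adipocyte libraries (14227 genes tested), the 7 SVC libraries (16404) and the 18 male libraries (17251) were fitted separately, and no column was left unused (0). Pairs of replicates differed beyond sampling noise, by a chi-square of at least 12.9 per degree of freedom. The procedure was tested on simulated counts.

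Called members were given in full, at most 6 in each direction by smallest p. With none called, the 4 of smallest p were given. Up to 3 called genes of the 40 further genes were named, and Cyp51, Fdft1 and the members not called were added after their values were seen. The epididymal list was also added after the values were seen. Alternatives were DESeq2 1.42.0, limma-voom (limma 3.58.1), RLE and upper-quartile scaling, scaling by library totals (added after the values were seen), no filter, groups fitted alone, replicate blocks and each library left out. Numbers in the deposited column names may pair fractions: same-numbered male libraries labelled knockout deviated together (r = 0.21 to 0.31, 3 pairs), and the report names the 4 members whose call ended under that block in those libraries. Promoter windows came from RefSeq (GRCm38.p6), exon lengths and shared 50-base words from GENCODE transcripts of GRCm38. The genome build of the counts is another one, so no coordinates of the counts are given.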

Additional observations from a re-analysis of the deposited data

Results flagged for a closer look

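Of 135 combinations of a member and a group of 4 to 6 libraries, 19 held a library far from the others by Dixon's criterion at its 95% critical value, which chance meets in about 1 in 20. Male adipocyte replicate 5 labelled knockout accounted for 13. It was highest for Acat2 (202 CPM, next 90.3), Mvk (60.5), Pmvk (183), Mvd (39.6), Sqle (37.9), Cyp51 (121), Tm7sf2 (18.7), Msmo1 (50.3), Nsdhl (115), Dhcr7 (36.8), Insig1 (836) and Stard4 (11.7), and lowest for Npc2 (688 CPM). In the same group Hsd17b7 and Hmgcs1 did not meet the criterion.

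SVC replicate 4 labelled knockout was highest for Fdft1 (180 CPM, next 23.0) and for Insig2 (47.9 CPM, next 32.5). SVC replicate 2 labelled knockout was lowest for Lss, at 5.94 CPM. Female adipocyte replicate 3 labelled knockout was lowest for Srebf2, at 28.3 CPM. Female control replicate 1 was highest for Insig1, at 648 CPM, and male control replicate 2 for Insig2, at 75.5 CPM.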

How the results depend on the processing

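Under DESeq2, 1 member was called in male adipocytes (Hsd17b7, adjusted p = 0.0116) in place of 0. With 1 library left out in turn, the count of members called ranged from 0 to 1 in male adipocytes, from 7 to 9 between the sexes of controls, from 19 to 24 between fractions in controls and from 17 to 20 in libraries labelled knockout. It stayed at 1 for the average over the sexes and at 0 in the other comparisons. Tm7sf2 in SVC, at -0.82, ranged from -1.17 to 0.26 and reversed without SVC control 1. Title numbers were not taken to pair libraries, since not every same-numbered pair correlated above 0.1: deviations correlated by -0.07 to 0.49 in females, by -0.13 to 0.15 in males (1 of 10) and by -0.22 to 0.33 in SVC (1 of 6). In females 6 of 12 libraries correlated best with their own number, and the same-numbered median was 0.29 against -0.05 for other numbers. With a replicate block on them, 4 members were called in females (Acat2, Idi1, Hsd17b7 and Dhcr7) in place of 0 and 2 for the average over the sexes in place of 1, where the adjusted p of Vldlr went to 0.0600 under the same block. Column-name numbers in male controls gave -0.02 to 0.20 between fractions (4 of 6). A replicate block on the column numbers, over 12 libraries, gave 19 members in controls, where Idi1 (adjusted p = 0.0929) and Scap (0.0561) lost their call, and 16 in libraries labelled knockout.

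Over all genes, DESeq2 called more than edgeR: 159 against 10 in male adipocytes, 206 against 67 in females, 350 against 108 for their average, 23 against 2 for their difference, 76 against 0 in SVC and 22 against 0 for the difference between fractions. Without male replicate 5 labelled knockout edgeR called 332 in males and 246 for the average. Fitted alone, the 2 groups gave 6 in males and 26 in females. A replicate block gave 4 in males, 180 for the average and 1 in SVC. Upper-quartile scaling moved the members' median between fractions in controls from 0.80 to 0.69. Small groups limit all of these, and the cause of each shift was not tested.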
